A study of Homo sapiens with 6 samples.

Results

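Kinesins are motor proteins that use ATP to move along microtubules or to take them apart. The family was defined as the protein-coding genes of the deposited gene table whose symbol is KIF followed by a digit, together with KIFC1, KIFC2 and KIFC3. This gave 40 genes of the 26748 in the table. By textbook function, 13 were placed among the mitotic kinesins, 15 among the transport kinesins and 12 among the other kinesins. Genes entered the test when their normalised counts averaged 10 or more across all 6 libraries, which 33 of the 40 did: 11 mitotic, 13 transport and 9 other kinesins. KIF2B and KIF19 were not analysed here, and 7 further rows with a kinesin name that are antisense RNAs or pseudogenes were left out.

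The mitotic members build and position the spindle, move chromosomes and complete the midbody between the daughter cells, so their transcripts are most abundant in dividing cells. The transport members carry vesicles, organelles and protein complexes along microtubules, most of them towards the plus end, and many are known best from neurons. The remaining members act in cilia, in Hedgehog signalling, in microtubule growth control or in ways less well described.

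RNA came from M14, an established human melanoma cell line. It was grown without attachment as 3D melanospheres, floating multicellular spheres (3 libraries), or attached to the dish in conventional 2D culture (3 libraries). Both cultures were of this 1 line, and the labels name no drug or genetic change. The study asked how putative cancer stem cell populations differ between the cultures. Values are normalised counts, that is reads per gene divided by a size factor for each library, and changes are given as 3D minus 2D on the log2(count + 1) scale with the standard error of the fit (SE).

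The libraries held 16567763 to 19954987 reads assigned to genes. 2D replicate 3 stood apart from its group: log2 values correlated across genes at 0.943 to 0.945 with the other 2D libraries, which correlated at 0.984 with each other. It also stood nearer to the spheres than the other 2D libraries did. Its correlation with the 3D libraries was 0.928 to 0.935, against 0.877 to 0.891 for 2D replicates 1 and 2. Results that rest on 2D replicate 3 are given with and without it. Mitochondrial genes took 5.09%, 4.28% and 5.76% of reads in 3D libraries and 0.528%, 1.01% and 1.49% in 2D libraries. Of 9 melanocyte lineage markers 3 had a mean of at least 10 over the 6 libraries, and the sum over all 9 ran from 910 to 1666 in 3D and from 1596 to 1879 in 2D. MITF stood at 271 to 309 in 3D and at 887 to 1295 in 2D. PMEL, the most abundant of the 9 in 3D, ran the other way, at 620 to 1377 in 3D and at 227 to 753 in 2D. MLANA stood at 4.13 to 14.8 in 3D and at 5.72 to 17.5 in 2D, and DCT, TYR, TYRP1, SOX10, S100B and PAX3 were at 0 to 5.82 in 3D. In 2D, DCT stood at 38.4 to 118, TYRP1 at 11.4 to 13.4 and TYR at 2.86 to 33.9. SOX10 stood at 4.77 to 37.0 in 2D, S100B at 0.953 to 13.4 and PAX3 at 0 to 6.17, the highest 2D value of each of these genes being that of replicate 3. Of the markers of other cell types, the fibroblast sum ran from 8282 to 11966 in 3D and from 1980 to 6003 in 2D, carried by the collagens COL1A1 and COL3A1 with DCN at 0 to 3.88. The leukocyte sum (PTPRC at 0 to 4.27) ran from 63.0 to 128 in 3D and from 21.0 to 63.7 in 2D. The endothelial sum (KDR at 0 to 2.14) ran from 138 to 187 in 3D and from 39.5 to 318 in 2D. It was carried by PECAM1 in 3D, at 94.6 to 154 against 0 to 9.25 in 2D, and by CDH5 in 2D replicate 3, at 268 in that library. The epithelial sum ran from 140 to 212 in 3D and from 475 to 550 in 2D. The part of these differences in the results on kinesins was not tested. In bulk RNA, fewer cells of a kind and less RNA per cell cannot be told apart.

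In the spheres all 11 mitotic kinesins tested were lower than in adherent culture, by 1.07 to 1.79 on the log2 scale, with a median change of -1.56 beside -0.02 over all 15598 genes tested (limma, Benjamini-Hochberg adjusted p under 0.05). Among all genes tested 11.6% were lower and 12.5% were higher by the same rule, and among the 12713 protein-coding genes 13.5% were lower and 11.0% higher. None of the 11 genes overlapped between the cultures, each 3D library being below each 2D library, as were 25.8% of protein-coding genes. The count stayed at 11 without 2D replicate 3, with a median change of -1.39. It was 9 to 11 when each library was left out in turn, while calls over all 15598 genes tested ran from 1190 to 7111. The count depends on the placing of members: KIF2A, a depolymerase of spindle poles and of growing axons, was placed among the other kinesins. It changed by 0.04 (adjusted p = 0.87, limma). When each library was given the same total, 2392 genes were called higher and 1253 lower, against 1950 and 1816 as deposited, the median of all genes moved to 0.11, and the 11 mitotic kinesins were still called lower. Of 4 proliferation markers, MKI67 and TOP2A were lower and MCM2 and PCNA did not pass. MKI67 had 954, 669 and 702 normalised counts in 3D and 1743, 3134 and 3181 in 2D (log2 change -1.76, SE 0.27, adjusted p = 0.0039, limma), and TOP2A, the topoisomerase of dividing cells, changed by -1.76 (SE 0.26, adjusted p = 0.0035, limma). MCM2, a subunit of the replicative helicase, changed by -0.62 (adjusted p = 0.053) and PCNA, the sliding clamp of replication, by 0.18 (adjusted p = 0.57, limma).

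**Figure D1:**
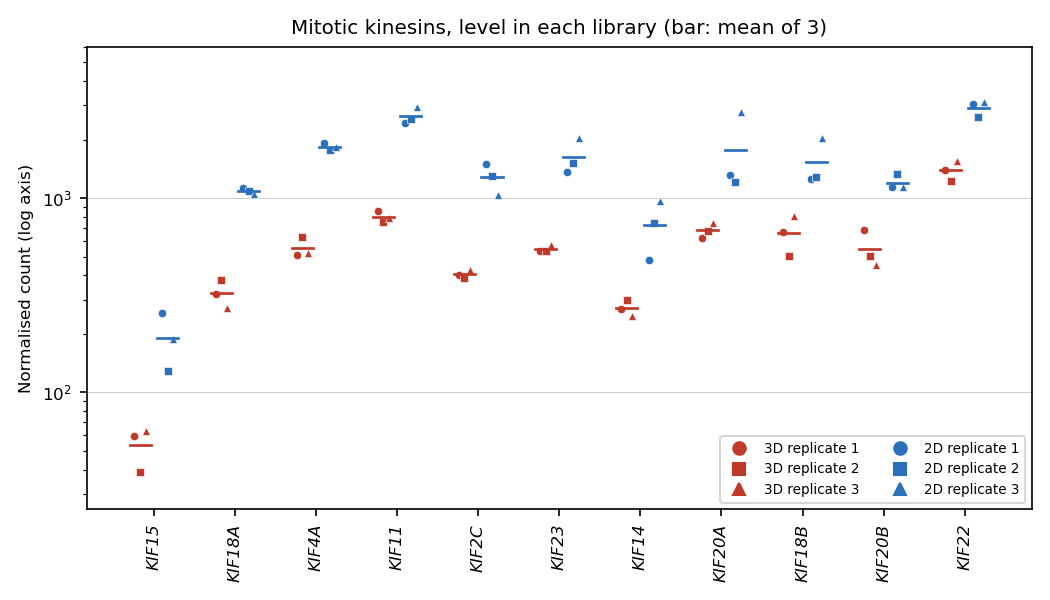
Normalised count of the 11 mitotic kinesins tested in each library, on a log axis. 3D libraries are red and stand left of the 2D libraries in blue, symbols mark the replicate number and bars the mean of 3. Every 3D point lies below every 2D point of the same gene, the nearest groups by ratio being those of KIF18B (806 in 3D and 1262 in 2D) and the farthest those of KIF11 (863 in 3D and 2447 in 2D).

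Genes of the G2 and M phases often carry a CHR element with a CCAAT box upstream of it in the proximal promoter, the binding sites of the DREAM and MuvB complexes and of NF-Y. Because the mitotic members moved together, their promoters were read from RefSeq (GRCh38.p14). The motifs searched on both strands were TTTGAA or TTCGAA for the CHR and CCAAT for the box, in a window from 250 bases before to 50 bases after the annotated start. The 130 bases from 110 before to 20 after the start are printed 5′ to 3′ on the gene's strand. They are given for 6 mitotic kinesins that hold both motifs there, and for KIF1C and KIF5B, 2 abundant transport kinesins. Capitals mark the matches. A match on the opposite strand reads TTCAAA for the T form of the CHR and ATTGG for the box. In this stretch KIF1C holds no match and KIF5B a box alone.
KIF4A: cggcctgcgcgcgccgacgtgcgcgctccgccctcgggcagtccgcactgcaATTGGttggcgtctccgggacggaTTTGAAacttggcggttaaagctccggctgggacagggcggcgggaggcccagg
KIF11: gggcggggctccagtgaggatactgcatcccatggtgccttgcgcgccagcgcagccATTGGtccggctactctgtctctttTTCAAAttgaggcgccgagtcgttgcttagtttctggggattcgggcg
KIF18A: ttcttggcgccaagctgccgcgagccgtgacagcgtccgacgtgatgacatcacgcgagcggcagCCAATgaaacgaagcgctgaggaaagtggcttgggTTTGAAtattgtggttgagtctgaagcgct
KIF23: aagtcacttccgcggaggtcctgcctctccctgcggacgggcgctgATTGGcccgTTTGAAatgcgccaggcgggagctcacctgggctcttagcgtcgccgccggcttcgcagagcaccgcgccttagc
KIF14: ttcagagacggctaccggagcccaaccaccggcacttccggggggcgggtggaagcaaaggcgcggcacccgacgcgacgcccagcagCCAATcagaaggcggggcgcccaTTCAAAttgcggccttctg
KIF22: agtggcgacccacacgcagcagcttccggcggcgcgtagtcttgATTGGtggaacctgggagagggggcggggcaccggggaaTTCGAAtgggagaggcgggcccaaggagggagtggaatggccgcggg
KIF1C: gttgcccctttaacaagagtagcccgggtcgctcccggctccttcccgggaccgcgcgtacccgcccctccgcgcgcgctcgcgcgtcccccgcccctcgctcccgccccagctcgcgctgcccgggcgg
KIF5B: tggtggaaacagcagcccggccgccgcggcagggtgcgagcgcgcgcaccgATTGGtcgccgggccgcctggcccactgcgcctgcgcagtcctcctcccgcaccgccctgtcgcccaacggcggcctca

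These stretches are at chrX:70289994-70290123 for KIF4A, chr10:92593020-92593149 for KIF11, chr15:69414239-69414368 for KIF23, chr16:29790641-29790770 for KIF22 and chr17:4997840-4997969 for KIF1C, all on the plus strand. Those on the minus strand are at chr11:28108137-28108266 for KIF18A, chr1:200620732-200620861 for KIF14 and chr10:32056406-32056535 for KIF5B. A CHR match was present in the window of 9 of the 11 mitotic kinesins tested (81.8%), 8 of them with TTTGAA and 1 with TTCGAA. It was present in 1 of the 10 transport kinesins with a window (10%), KIF5B, whose match lies upstream of the stretch shown. It was present in 1 of 7 other kinesins (14.3%) and in 15.2% of the 11030 genes tested that have a window. A CCAAT match was present in 9 of 11 mitotic (81.8%), 4 of 10 transport (40%) and 2 of 7 other kinesins (28.6%), beside 42.3% of those 11030 genes. Both motifs stood in the window of 8 of 11 mitotic kinesins (72.7%), against 8.16% of the genes tested. They also stood in that of 1 of 10 transport kinesins (10%), KIF5B, and of 1 of 7 other kinesins (14.3%), KIF24. KIF2C held neither motif and KIF20A held the box without a CHR, and both were lower in 3D. Of the carriers of both outside the mitotic class, KIF5B was lower (log2 change -0.69, adjusted p = 0.023, limma). KIF24 did not pass (-0.42, adjusted p = 0.36, limma). The matches are letters in a window and no CHR match overlapped a CCAAT match. No binding was measured here.

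**Figure D2:**
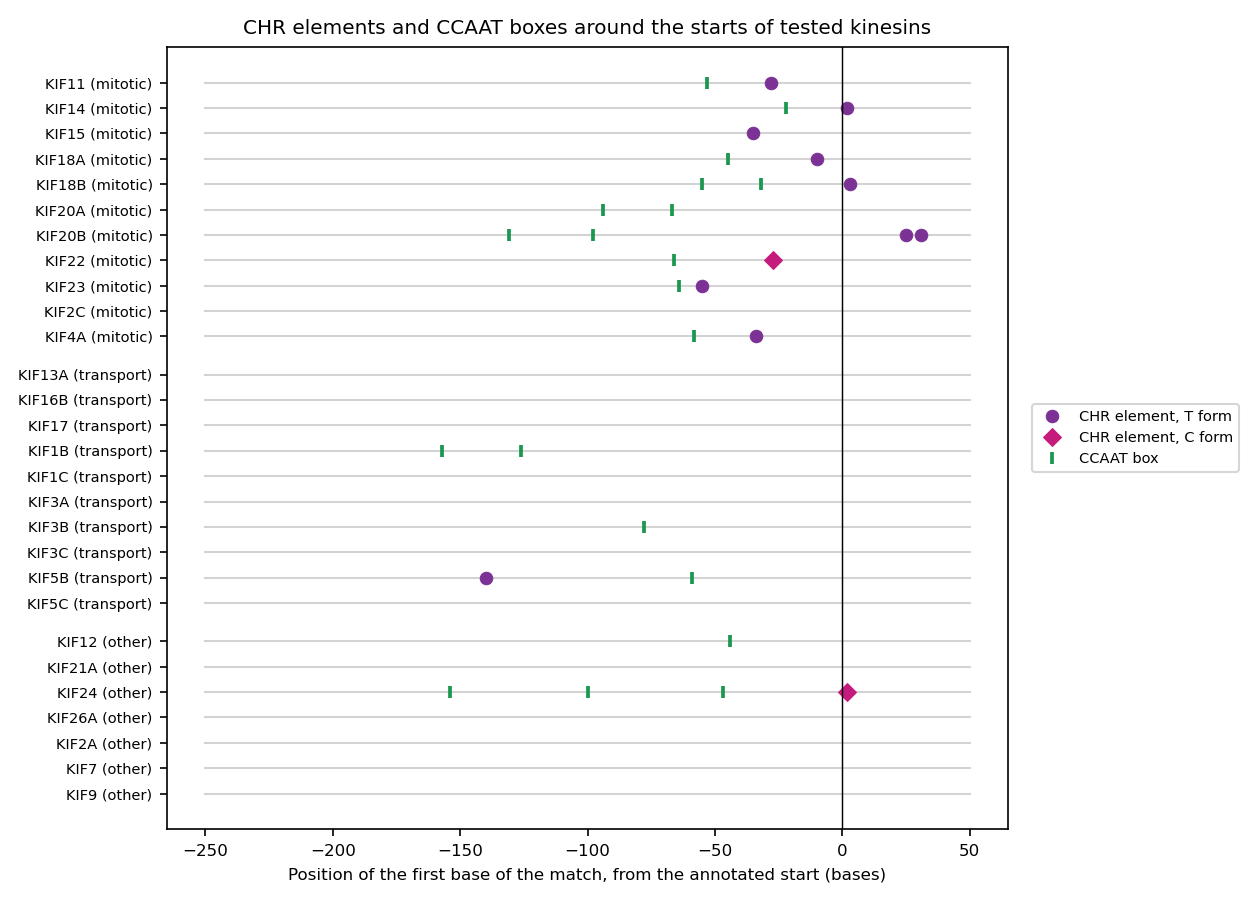
Position of CHR and CCAAT matches in the promoter windows of the kinesins tested, as distance in bases from the annotated start, with the first listed window of each gene and the classes grouped (the counts in the text use every window of a gene). CHR matches lie near the start in 9 of the 11 mitotic windows, downstream of it in KIF14, KIF18B and KIF20B, and the boxes, where present, lie upstream of them.

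The motors of spindle bipolarity were among those with the steepest changes. KIF11, the motor that slides antiparallel microtubules and drives the poles apart, had 863, 751 and 789 normalised counts in 3D and 2447, 2568 and 2956 in 2D (log2 change -1.73, SE 0.16, adjusted p = 0.00058, limma). KIF15, which can maintain a bipolar spindle alongside KIF11, had 59.4, 38.8 and 63.0 in 3D and 255, 128 and 189 in 2D (log2 change -1.79, SE 0.34, adjusted p = 0.0091, limma). All 3 sphere libraries were below all 3 adherent ones for both genes, and the spread was wider for KIF15, per kilobase the least abundant of the 11.

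The regulators of microtubule length and of chromosome movement were also lower in the spheres. KIF18A, which damps the oscillation of chromosomes at the metaphase plate, had 320, 379 and 273 normalised counts in 3D and 1132, 1087 and 1056 in 2D (log2 change -1.76, SE 0.18, adjusted p = 0.00083, limma). KIF18B, which acts on astral microtubules, had 670, 502 and 806 in 3D and 1262, 1288 and 2049 in 2D (log2 change -1.20, SE 0.25, adjusted p = 0.013, limma). The high 2D value of KIF18B was that of replicate 3, and its call was lost without 3D replicate 1 (adjusted p = 0.0506). KIF2C, the depolymerase that corrects wrong attachments at centromeres, had 403, 390 and 428 in 3D and 1500, 1293 and 1043 in 2D (log2 change -1.63, SE 0.19, adjusted p = 0.0012, limma). Here replicate 3 was the lowest of the 2D libraries.

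The chromokinesins, which bind chromosome arms, were lower too. KIF4A, which also limits the length of midzone microtubules, had 507, 634 and 520 normalised counts in 3D and 1912, 1769 and 1825 in 2D (log2 change -1.73, SE 0.17, adjusted p = 0.00063, limma). KIF22, which pushes chromosome arms away from the poles, had 1393, 1229 and 1547 in 3D and 3042, 2608 and 3109 in 2D (log2 change -1.07, SE 0.17, adjusted p = 0.0043, limma). Per kilobase of exon, KIF22 was the most abundant mitotic kinesin in both cultures, and it was the least changed of the 11. Of its exon bases 13.01% overlap a gene on the opposite strand, and these libraries do not separate strands. KIF4B, a close copy of KIF4A, was under the limit for testing, with 0.928, 0.969 and 1.03 in 3D and 1.91, 4.27 and 20.6 in 2D.

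The motors of cytokinesis were all lower in 3D, 4 genes in number. KIF23, the motor of centralspindlin, had 537, 537 and 571 normalised counts in 3D and 1368, 1512 and 2032 in 2D (log2 change -1.56, SE 0.19, adjusted p = 0.0016, limma). KIF20B, needed for late steps of abscission, had 682, 505 and 455 in 3D and 1135, 1324 and 1140 in 2D (log2 change -1.15, SE 0.20, adjusted p = 0.0065, limma). KIF14, which binds citron kinase and PRC1 at the midbody, had 269, 298 and 247 in 3D and 479, 742 and 967 in 2D (log2 change -1.37, SE 0.27, adjusted p = 0.0098, limma). No 3D library of these genes reached a 2D library. KIF20A, which brings the chromosomal passenger complex to the midzone, had 625, 679 and 744 in 3D and 1310, 1209 and 2760 in 2D (log2 change -1.26, SE 0.30, adjusted p = 0.020, limma). The call of KIF20A was the least stable of the 11: it was lost without 3D replicate 1, 2 or 3 (adjusted p = 0.0764, 0.0538 and 0.0670), and its change was -0.89 without 2D replicate 3. The call of KIF14 was lost without 3D replicate 3 (adjusted p = 0.0517).

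KIFC1, a minus-end motor that focuses spindle poles, was listed at 1.86, 0 and 3.10 normalised counts in 3D and at 1.91, 1.07 and 7.20 in 2D, and was not tested. Its neighbours on chromosome 6 include genes that dividing cells express strongly, such as RPS18, a ribosomal protein gene, listed at 26.0, 64.9 and 18.6 in 3D and at 35.3, 52.3 and 21.6 in 2D. Not all neighbours were low: BAK1, a regulator of apoptosis, had 417 to 578 in 3D and 391 to 554 in 2D. CUTA had 787, 67.9 and 64.0 in 3D and 54.4 to 70.5 in 2D, so its high value was that of 3D replicate 1 alone. Of 20 protein-coding neighbours within 200 kb, 9 had a row in the table, and 3 of those had a mean under 10. The part of read assignment at this locus in the low value of KIFC1 was not tested.

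The transport kinesins did not move as a class in the same way. Of 13 tested, 3 were lower (KIFC3, KIF13A and KIF5B), 1 was higher (KIFC2) and 9 did not pass, with a median change of -0.35, beside 13.5% lower and 11.0% higher among protein-coding genes. Without overlap between the cultures, 6 were lower in 3D and 1 was higher, against 25.8% and 17.7% of protein-coding genes. The count was 1 without 3D replicate 1 or 3 or without 2D replicate 1 or 2, 4 without 3D replicate 2 and 5 without 2D replicate 3. Calls over all 15598 genes tested were 1190 to 1793, 2985 and 7111 in these fits, in the same order, against 3766 with all libraries.

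KIFC3, a minus-end motor known for apical transport and for holding microtubules at adherens junctions in epithelia, had 3310, 3905 and 3725 normalised counts in 3D and 7743, 7239 and 7472 in 2D (log2 change -1.04, SE 0.16, adjusted p = 0.0039, limma). The groups lay far apart relative to their scatter, and KIFC3 was the transport kinesin whose call held with every library left out (adjusted p at most 0.0313). KIF5B, the ubiquitous heavy chain of conventional kinesin, had 2850, 3124 and 2317 in 3D and 4365, 4737 and 4223 in 2D (log2 change -0.69, SE 0.17, adjusted p = 0.023, limma). KIF13A, which positions recycling endosomes that supply forming melanosomes in pigment cells, had 625, 625 and 621 in 3D and 1086, 1293 and 899 in 2D (log2 change -0.79, SE 0.18, adjusted p = 0.018, limma). Neither gene overlapped between the cultures. Both calls were lost without 3D replicate 1 or 3 or without 2D replicate 1 or 2, with adjusted p up to 0.109 for KIF5B and 0.0756 for KIF13A.

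KIFC2, a minus-end motor described in mouse neurons, went the other way, with 842, 457 and 1056 normalised counts in 3D and 173, 165 and 361 in 2D (log2 change 1.76, SE 0.39, adjusted p = 0.015, limma). All 3D libraries were above all 2D libraries, the nearest being 3D replicate 2 and 2D replicate 3. The call was lost without 3D replicate 1 or 3 or without 2D replicate 1 or 2 (adjusted p up to 0.0727). Of its exon bases 17.8% overlap FOXH1 on the opposite strand, which had 20.4, 20.4 and 10.3 in 3D and 2.86, 10.7 and 6.17 in 2D.

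The heterotrimeric kinesin, which serves cilia and vesicle transport, is formed by KIF3A with KIF3B or KIF3C. None of the 3 passed the test. KIF3B had 1984, 2377 and 1870 normalised counts in 3D and 2381, 2621 and 2924 in 2D, with a change of -0.35 (adjusted p = 0.16, limma). Its groups nearly met, at 2377 in 3D and 2381 in 2D. KIF3A changed by -0.13 (adjusted p = 0.72). KIF3C had 739, 902 and 772 in 3D and 492, 491 and 911 in 2D, so that 2D replicate 3 lay just above the highest 3D library and the other 2D libraries lay below all of them. Its change was 0.41 (adjusted p = 0.27, limma), and 0.70 without that library (adjusted p = 0.0077).

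The vesicle and mitochondria carriers of the next group did not pass either. KIF1C, a carrier of integrin-containing vesicles, had 3075, 3196 and 3638 normalised counts in 3D and 4007, 3761 and 5514 in 2D, with a change of -0.41 (adjusted p = 0.15, limma). Its groups did not overlap, nor did those of KIF1B, a carrier of mitochondria and synaptic vesicle precursors (change -0.25, adjusted p = 0.28). KIF13B changed by -0.34 (adjusted p = 0.23), KIF17 by -0.66 (adjusted p = 0.25) and KIF16B, a motor of early endosomes, by 0.00 (adjusted p = 1.00, limma). Of the motors known best from neurons, KIF5C had 3.71 to 8.72 in 3D and 7.62 to 21.6 in 2D and did not pass (adjusted p = 0.18). KIF5A and KIF1A were at most 8.54 in any library and were not tested.

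Of the 9 other kinesins tested, 1 was higher (KIF12), 1 was lower (KIF21A) and 7 did not pass, with a median change of -0.06. These shares were near the 11.0% higher and 13.5% lower among all protein-coding genes. Neither call held in all fits that left out a library. The count was 0 without 3D replicate 1 or 3 or without 2D replicate 1 or 2. It was 1 without 3D replicate 2 and 6 without 2D replicate 3. Calls over all 15598 genes tested were 1190 to 1793, 2985 and 7111 in these fits, in the same order. KIF12, known from kidney and liver epithelia, had 50.1, 31.0 and 58.8 normalised counts in 3D and 1.91, 5.34 and 16.4 in 2D (log2 change 2.75, SE 0.66, adjusted p = 0.021, limma). The sphere libraries were all higher, at low counts. Without 3D replicate 1 or 3 or 2D replicate 1 or 2 the adjusted p of KIF12 was 0.0797, 0.0941, 0.0576 and 0.0589, and its change was 2.13 without 2D replicate 1 and 3.42 without 2D replicate 3. KIF21A, a motor that restrains microtubule growth, had 1311, 1267 and 1186 in 3D and 1572, 1935 and 1960 in 2D (log2 change -0.53, SE 0.16, adjusted p = 0.0456, limma). The call of KIF21A was lost in 5 of the 6 fits that left a library out, and also with the replicate number as a block (adjusted p = 0.101), with edgeR (0.0551), with no filter on low values (0.0689), with TMM rescaling (0.0580), with the median of ratios recomputed (0.0552) and with equal library totals (0.119).

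For several of these genes the result turned on 2D replicate 3. Gained calls in the fit without it were not particular to kinesins. That fit called 7111 of all 15598 genes tested, against 3766 with all libraries. KIF21B, a relative of KIF21A found in neurons and immune cells, had 312, 258 and 369 normalised counts in 3D and 1067, 1321 and 273 in 2D. The change was -1.23 over all libraries (adjusted p = 0.11, limma; 0.0103 with DESeq2) and -1.94 without that library (adjusted p = 0.00019). KIF26A, a member without motor activity that acts on signalling in mouse enteric neurons, had 2303, 1666 and 2631 in 3D and 1101, 1105 and 3172 in 2D. 2D replicates 1 and 2 were below every 3D library and replicate 3 was above them all. The change was 0.46 (adjusted p = 0.42, limma) with replicate 3 and 0.97 (adjusted p = 0.0049) without it. KIF7, a ciliary regulator of Hedgehog signalling, changed by -0.44 (adjusted p = 0.12, limma; 0.019 without 2D replicate 3). KIF9, a motor of motile cilia, changed by 0.88 (adjusted p = 0.14, limma; 0.0275 without it). Of the exon bases of KIF9 17.9% and of KIF7 11.8% overlap genes on the opposite strand.

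KIF2A, a depolymerase of spindle poles and of growing axons, differed by 0.04 (adjusted p = 0.87), KIF24, which restrains cilium formation at the mother centriole, by -0.42 (adjusted p = 0.36, limma) and KIF27 by -0.06 (adjusted p = 0.91). The value of KIF27 is uncertain, as 21.2% of its 75-base windows also occur in transcripts of another gene. KIF25, KIF26B and KIF6 were at most 7.42 in any library and were not tested.

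**Figure D3:**
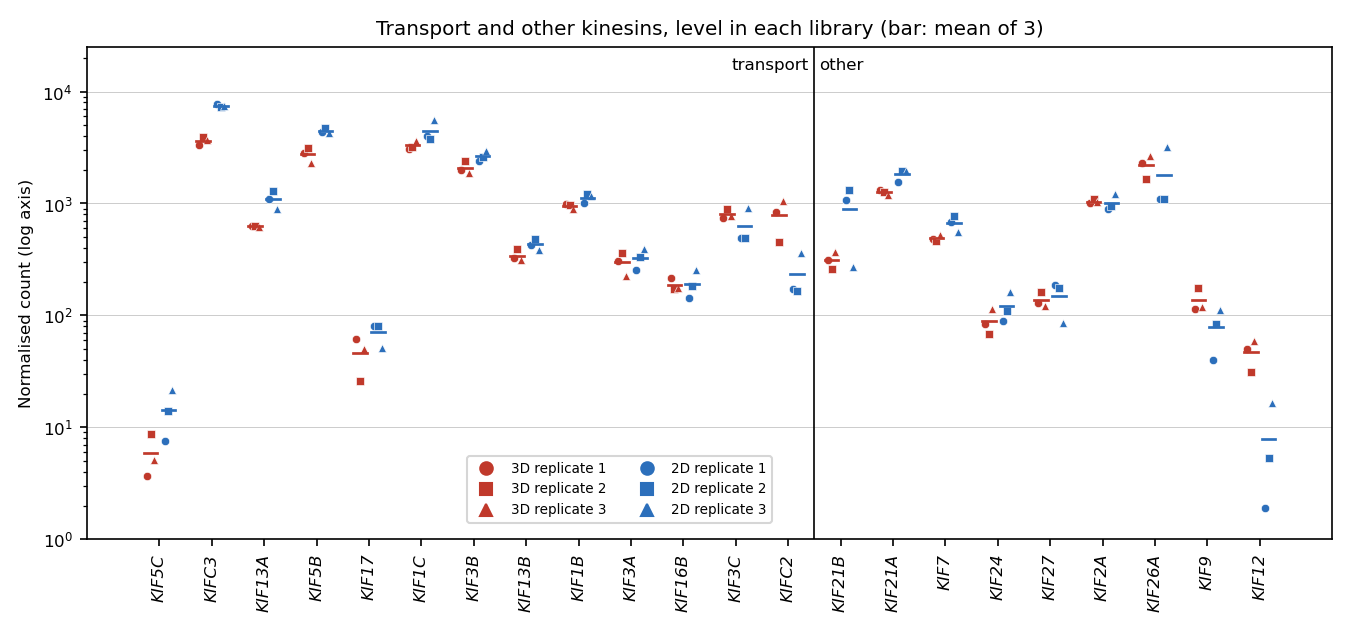
Normalised count of the 13 transport and 9 other kinesins tested in each library, on a log axis, with 3D libraries (red) left of 2D libraries (blue) and bars at the mean of 3. KIFC3 is lower and KIFC2 and KIF12 are higher in every 3D library, while 2D replicate 3 (blue triangle) stands with the 3D libraries for KIF21B and KIF3C.

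**Figure D4:**
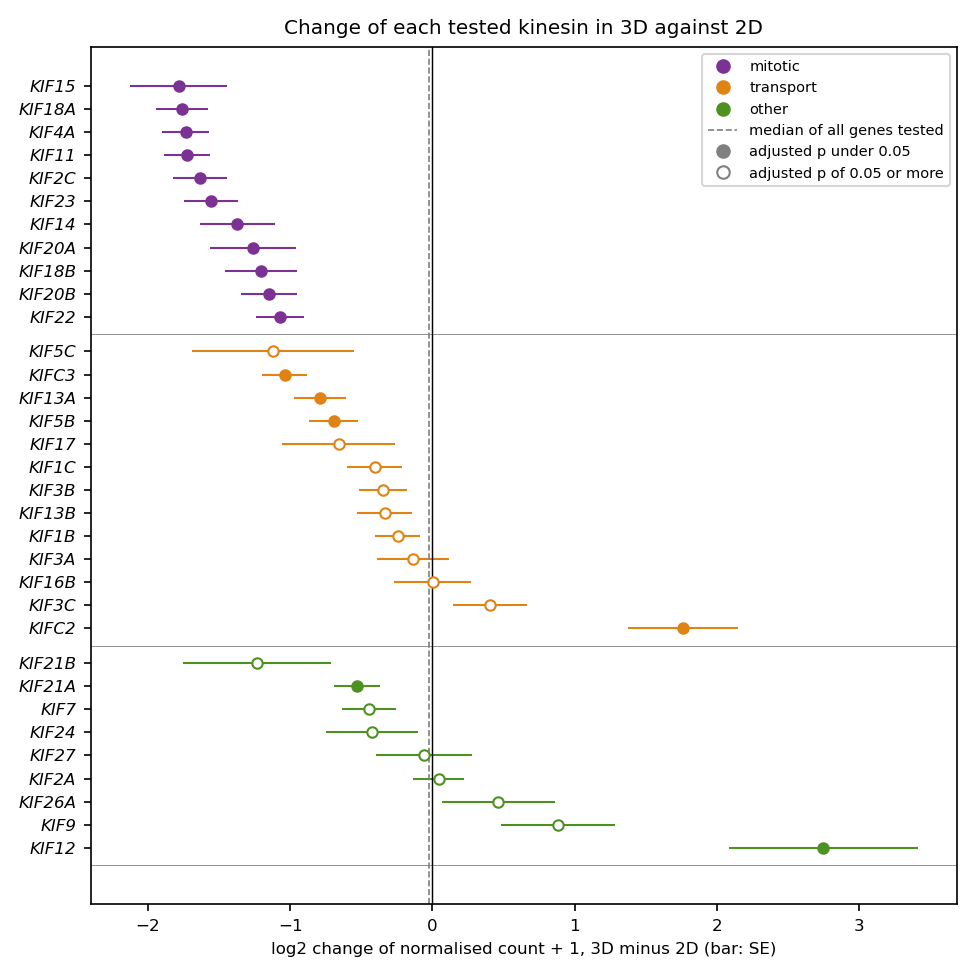
Change of each of the 33 kinesins tested, 3D minus 2D on the log2(count + 1) scale, with its standard error and colours for the class. The mitotic kinesins span -1.79 to -1.07, the transport kinesins -1.12 to 1.76 and the other kinesins -1.23 to 2.75.

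Set against each other, the mitotic class separated the cultures more than the transport class did. With each gene's log2 value centred over the 6 libraries, the mean of the mitotic kinesins minus the mean of the transport kinesins was -0.57, -0.68 and -0.55 in 3D and 0.72, 0.49 and 0.59 in 2D. The means were -0.60 ± 0.066 in 3D and 0.60 ± 0.11 in 2D (SD, n = 3 each), a difference of -1.20. The centring makes the means of the cultures mirror each other, so only their difference and the spread carry information. Over other pseudocounts, filters and rescalings and with each library left out, this difference ran from -1.27 to -1.14. Rescaling a library shifts both class means almost alike, so the rescalings could hardly move the difference. For the mitotic class alone the 3D libraries lay at -0.70, -0.80 and -0.71 and the 2D libraries at 0.68, 0.62 and 0.91. For the transport class the 3D libraries lay at -0.13, -0.12 and -0.16 and the 2D libraries at -0.04, 0.13 and 0.32. No test was made on these scores.

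The makeup of the kinesin transcripts shifted with this. Mitotic kinesins held 23.1%, 21.5% and 22.8% of all kinesin counts in 3D and 36.3%, 34.8% and 37.3% in 2D. Transport kinesins held 55.8%, 59.8% and 55.4% in 3D and 50.8%, 50.7% and 47.9% in 2D. Summed normalised counts of the mitotic class were 6240 ± 264 in 3D and 16845 ± 2006 in 2D (SD, n = 3 each), those of the transport class 15835 ± 610 and 23119 ± 1274, and those of the other class 5711 ± 497 and 6553 ± 967. The sum over all kinesins was thus lower in the spheres, at 27787 ± 426, against 46517 ± 4158 in adherent culture.

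**Figure D5:**
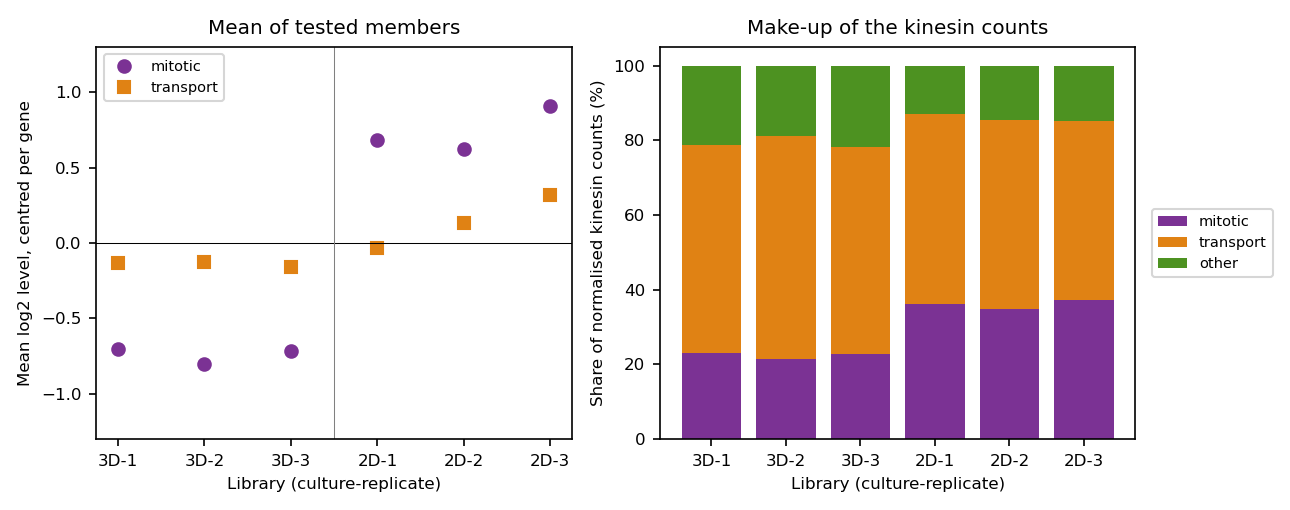
Mean centred log2 level of the mitotic and transport kinesins tested and the share of all kinesin counts held by each class, in each library, with 3D left of 2D. Mitotic levels lie between -0.80 and -0.70 in 3D and between 0.62 and 0.91 in 2D, transport levels between -0.16 and -0.12 and between -0.04 and 0.32.

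Levels of different genes were compared as normalised counts per kilobase of merged exons. In 3D the highest were KIF5B at 470 ± 69.8, KIF1C at 385 ± 34.5, KIFC3 at 380 ± 31.7 and KIF3B at 340 ± 43.6 per kilobase (SD, n = 3), all transport kinesins whose means lay close together, those of KIF1C and KIFC3 differing by less than their spread. In 2D they were KIFC3 at 780 ± 26.3, KIF5B at 756 ± 45.1, KIF22 at 677 ± 63.1 and KIF11 at 547 ± 54.6. By the level per kilobase, KIF11 ranked 10 of 33 in 3D and 4 in 2D, KIF4A ranked 14 in 3D and 8 in 2D, and KIFC2 ranked 8 in 3D and 23 in 2D.

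Of the proteins that work with mitotic kinesins at the spindle and midzone, 12 of 17 were lower in 3D, none was higher, and the median change was -1.20. Among protein-coding genes 13.5% were lower and 11.0% higher, and the median over all genes tested was -0.02. CENPE, a kinetochore motor of the kinesin superfamily whose symbol is outside the KIF rule, had 177, 152 and 148 normalised counts in 3D and 560, 785 and 602 in 2D (log2 change -2.01, SE 0.21, adjusted p = 0.00083, limma). TPX2, which targets Aurora A to the spindle, changed by -1.49 (adjusted p = 0.0011), and CDCA8 of the chromosomal passenger complex by -1.70 (adjusted p = 0.0012, limma). NUSAP1, PLK1 and AURKB changed by -1.46, -1.51 and -1.37 (adjusted p = 0.0013, 0.0015 and 0.0026, limma). All 17 changes were negative. The 5 that did not pass, named here after their values were seen, were BIRC5, PRC1, ECT2, NUMA1 and CCNB1, the cyclin of mitotic entry. For PRC1 and ECT2 each 3D library was below each 2D library (adjusted p = 0.083 and 0.14, limma). PRC1 was low in both cultures, at 41.8, 41.7 and 49.5 in 3D and 61.0, 84.3 and 91.5 in 2D. The groups of BIRC5 and NUMA1 overlapped. CCNB1 had 1612, 3278 and 1872 in 3D and 2460, 2022 and 4712 in 2D, with overlapping groups (adjusted p = 0.42).

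Among 16 light chains and cargo adaptors tested, 4 were lower, 1 was higher and 11 did not pass, with a median change of -0.36, beside 13.5% lower and 11.0% higher among protein-coding genes. The 5 calls became 1 or 2 without 3D replicate 1 or 3 or 2D replicate 1 or 2, and 10 without 2D replicate 3, a fit in which the count over all genes also moved, to 7111 against 3766. FEZ2 (-1.03, adjusted p = 0.0065), PLEKHM2, which links lysosomes to KIF5B (-0.82, adjusted p = 0.011), RHOT1, a mitochondrial anchor of the motor (-1.04, adjusted p = 0.021), and the light chain KLC3 (-0.93, adjusted p = 0.031, limma) were lower. RHOT2, the paralog of RHOT1, was higher by 0.91 (adjusted p = 0.013, limma), with 2806, 2275 and 3284 normalised counts in 3D and 1394, 1330 and 1698 in 2D.

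Cytoplasmic dynein, with its activator dynactin, is the main motor towards the minus end. Of 22 genes tested, 3 were lower, none was higher and 19 did not pass, with a median change of -0.24. The share called lower was near the 13.5% of all protein-coding genes. There were 0 calls without 3D replicate 1 or 3 or 2D replicate 1 or 2, 2 without 3D replicate 2 and 7 without 2D replicate 3. Calls over all 15598 genes tested were 1190 to 1793, 2985 and 7111 in these fits, in the same order, against 3766 with all libraries. The 3 dynein-list genes called lower were PAFAH1B1, the dynein activator LIS1 (-0.79, adjusted p = 0.015), DYNLL2 (-0.83, adjusted p = 0.021) and DYNC1LI1 (-0.69, adjusted p = 0.026, limma). The 12 tubulins tested were alpha- and beta-tubulins, the subunits of the tracks themselves, and the gamma-tubulins TUBG1 and TUBG2. TUBB, a further beta-tubulin, was not analysed here. Of the 12, 2 were higher, 1 was lower and 9 did not pass, with a median change of 0.09. The shares among protein-coding genes were 11.0% higher and 13.5% lower. The 3 calls became 5 without 2D replicate 3 and 2 without any other library. TUBG2, a gamma-tubulin, had 625, 765 and 812 normalised counts in 3D and 233, 196 and 360 in 2D (log2 change 1.52, SE 0.26, adjusted p = 0.0058, limma). TUBB3, a beta-tubulin typical of neurons, changed by 1.55 (adjusted p = 0.031) and TUBB6 by -0.93 (adjusted p = 0.0073, limma).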

How the data were processed

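RNA of M14 cells in 3D and 2D culture (3 libraries each) was prepared with an unstranded TruSeq v2 kit, per the labels' protocols. Group and replicate come from the sample titles, and whether replicates are separate cultures is not labelled. The p-values may therefore reflect technical spread only. The submitters' processing notes name GRCh38, HISAT2, featureCounts 1.5.0 and DESeq2. Other versions and the annotation release: not given in the sources used here. Each deposited value is a signal: the authors' read count of a gene divided by a size factor of its library, as the values show, since 100.0% were whole reads within 0.01 of a read. 6 columns without values were not used.

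Symbols were matched for 26506 of 26748 genes, and 26702 were in GENCODE 29, the source of biotype, position and exon length. Genes with a mean of at least 10 (15598) were tested in limma 3.58.1 under R 4.3.3, on the log2(value + 1) scale, with culture as the model term, trended eBayes and a Benjamini-Hochberg threshold of 0.05. This scale understates the change of low genes. The workflow was tested on simulated data. There it called 15% of genes with a log2 change of 1 and 72% of those with a change of 2, with 200 genes changed in all. It also called 9 genes simulated without a change. A gene that did not pass may therefore still differ, and a gene that passed may be a false call. Alternatives were pseudocounts of 0.1 and 10, filters, rescaling, a replicate block, robust eBayes, edgeR 4.0.16 and DESeq2 1.42.0 on the whole reads, adjusted p under 0.01, and each library left out. Members and lists were chosen with earlier results of these data known. Any kinesin could be named, and of the other lists at most 6 members past the threshold, by smallest adjusted p, with MKI67 and TOP2A. Markers of other cell types, MCM2, PCNA, FOXH1, RPS18, BAK1, CUTA and the partners that did not pass are named outside this rule.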

Additional observations from a re-analysis of the deposited data

How the results depend on the processing

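No kinesin that passed the test changed sign in any setting run. Of 559 values of single kinesins over the alternatives, 510 kept their direction and side of the threshold, 32 lost a call, 6 gained one and 11 changed sign without being called. Those with a changed sign were KIF27 with equal library totals (0.072) and, with 1 library left out, KIF27 (-0.42 to 0.15), KIF16B (-0.19 to 0.22), KIF2A (-0.047 to 0.19) and KIF3A (-0.30 to 0.050).

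With 1 library left out, genes changed numbered 1190 (without 3D replicate 3) to 7111 (without 2D replicate 3), with 1307, 1549 and 1793 without 3D replicate 1, 2D replicate 1 and 2D replicate 2, against 3766 with all 6. The lists gave mitotic kinesins 9 to 11, transport kinesins 1 to 5, other kinesins 0 to 6, light chains and adaptors 1 to 10, spindle partners 9 to 12, dynein and dynactin 0 to 7 and tubulins 2 to 5. At an adjusted p under 0.01, 1121 genes passed, with 9 mitotic, 1 transport and 0 other kinesins, 1 adaptor and 0 of the dynein list. The other kinesins had 1 call with no filter, a mean of at least 50, TMM rescaling, equal library totals, the median of ratios recomputed, edgeR or the replicate block.

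Same-numbered libraries did not deviate together (r -0.139 to 0.0447), so they were not taken as pairs. With the replicate block 3222 genes passed, with 11 mitotic, 4 transport and 1 other kinesin. On the whole reads edgeR called 3657 genes and DESeq2 4724. The causes of these differences were not tested.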
